A study of Mus musculus with 2 samples.

Results

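The 45 genes described here carry out mitosis, from the cyclins and kinases that start it to the proteins that attach chromosomes to the spindle and split the cell. They were chosen by name and function, with earlier results of these data known. Each of the 45 symbols matched 1 of the 43346 genes measured. The study measured total RNA in whole liver of mouse embryos of strain B6NCrl at embryonic day 15.5, with no genetic change or treatment named. There were 2 libraries in 1 group, biological replicates from separate pools of livers of both sexes, 78 embryos for replicate 1 and 62 for replicate 2. The RNA was longer than 200 nt, its input was 10 ng per library, and spike-ins were added. Since the livers were pooled and not sorted, the values are means over all cells of many embryos, and variation between embryos is not seen.

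At entry into mitosis, Cdk1 joined to cyclin A or cyclin B phosphorylates the proteins that condense chromosomes and build the spindle. Kinetochores then bind spindle microtubules, and the spindle checkpoint holds back the anaphase-promoting complex (APC/C, the ubiquitin ligase that destroys cyclin B and securin) until all chromosomes are attached. Transcription of many mitotic genes peaks in G2 and mitosis, through MYB-MuvB and Foxm1 at a promoter element called the CHR (cell cycle genes homology region) and through NF-Y at CCAAT boxes. The fetal liver is known both for dividing blood precursors, mainly of the red cell lineage, and for growing hepatocytes.

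The promoters of 36 of the 45 genes were in the RefSeq promoter table (GRCm38.p6), in 41 windows that run from 250 bases before a start to 50 bases after it. A CHR was in 27 of the 36 (75.0%), against 20.2% of 17492 protein-coding genes. A CCAAT box was also in 27 (75.0%), against 42.3% of the coding genes. Both were in 24 (66.7%), against 8.22%. The letters searched were TTTGAA and TTCGAA for the CHR and CCAAT for the CCAAT box, on both strands, and neither motif's letters contain the other's. Promoters are shown as 120 bases that end just before the first start that RefSeq or GENCODE M21 gives for the gene, 5′ to 3′ on the strand of the gene, with matches to the CHR and the CCAAT box in capitals. That end lies 26 bases before the RefSeq start in Cdk1, 9 in Cdc20 and 31 in Ube2c, and at the RefSeq start in the others, so matches nearer to the start or after it are not shown. Cdk1, Ccnb2, Cdc20, Ube2c, Spc25, Kif11 and Top2a were taken to show how the motifs lie together in genes of different roles, and Birc5 as a high gene without a match.
Cdk1 (chr10:69352939-69353058, minus strand): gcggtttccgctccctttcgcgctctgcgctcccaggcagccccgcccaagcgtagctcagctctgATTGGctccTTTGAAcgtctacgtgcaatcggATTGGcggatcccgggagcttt
Ccnb2 (chr9:70421555-70421674, minus strand): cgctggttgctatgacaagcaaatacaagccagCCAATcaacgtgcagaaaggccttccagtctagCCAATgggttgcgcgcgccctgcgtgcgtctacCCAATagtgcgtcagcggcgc
Cdc20 (chr4:118437353-118437472, minus strand): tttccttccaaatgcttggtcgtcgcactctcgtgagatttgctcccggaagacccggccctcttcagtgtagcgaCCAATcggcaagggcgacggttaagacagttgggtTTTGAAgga
Ube2c (chr2:164769778-164769897, plus strand): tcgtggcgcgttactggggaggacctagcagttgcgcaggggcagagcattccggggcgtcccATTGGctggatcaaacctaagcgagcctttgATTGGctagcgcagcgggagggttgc
Spc25 (chr2:69206214-69206333, minus strand): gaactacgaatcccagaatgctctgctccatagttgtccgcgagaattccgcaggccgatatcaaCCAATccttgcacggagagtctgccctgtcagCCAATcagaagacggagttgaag
Kif11 (chr19:37376262-37376381, plus strand): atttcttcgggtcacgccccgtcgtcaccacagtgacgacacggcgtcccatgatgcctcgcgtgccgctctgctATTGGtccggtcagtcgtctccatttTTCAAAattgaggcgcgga
Top2a (chr11:99024190-99024309, minus strand): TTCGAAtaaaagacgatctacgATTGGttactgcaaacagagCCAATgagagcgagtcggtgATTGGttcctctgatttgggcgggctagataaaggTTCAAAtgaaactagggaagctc
Birc5 (chr11:117849117-117849236, plus strand): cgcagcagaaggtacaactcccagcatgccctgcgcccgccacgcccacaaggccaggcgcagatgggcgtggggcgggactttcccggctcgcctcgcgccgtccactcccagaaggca

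The matches lay close to the start. A CHR began within 50 bases of the start in 25 of the 36 genes (69.4%), against 5.08% of coding genes, and over the 27 genes that had one the nearest began at a median of 5 bases after the start. For 10 genes that nearest CHR began before the start and for 17 at or after it, so the count depends on the window: in the 150 bases before the start alone, 12 genes held a CHR (10.2% of coding genes did) and 10 held both motifs (2.86% of coding genes). At least 2 CCAAT boxes were in 17 genes (47.2%), against 14.6%. As the sequences above show, Ccnb2 and Top2a held 3 CCAAT boxes each in the printed stretch, and Cdk1, Ube2c and Spc25 held 2 each. Cdc20, Kif11 and Top2a held a CHR less than 50 bases before the start, and in Cdk1 a CHR lay between the 2 CCAAT boxes. Birc5, Mad2l1, Pttg1, Nuf2, Nusap1 and Ncaph had neither motif in the window, which says only that these letters are not there. Of the 36 genes, 30 had a RefSeq start within 50 bases of the start of their most abundant transcript.

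**Figure D1:**
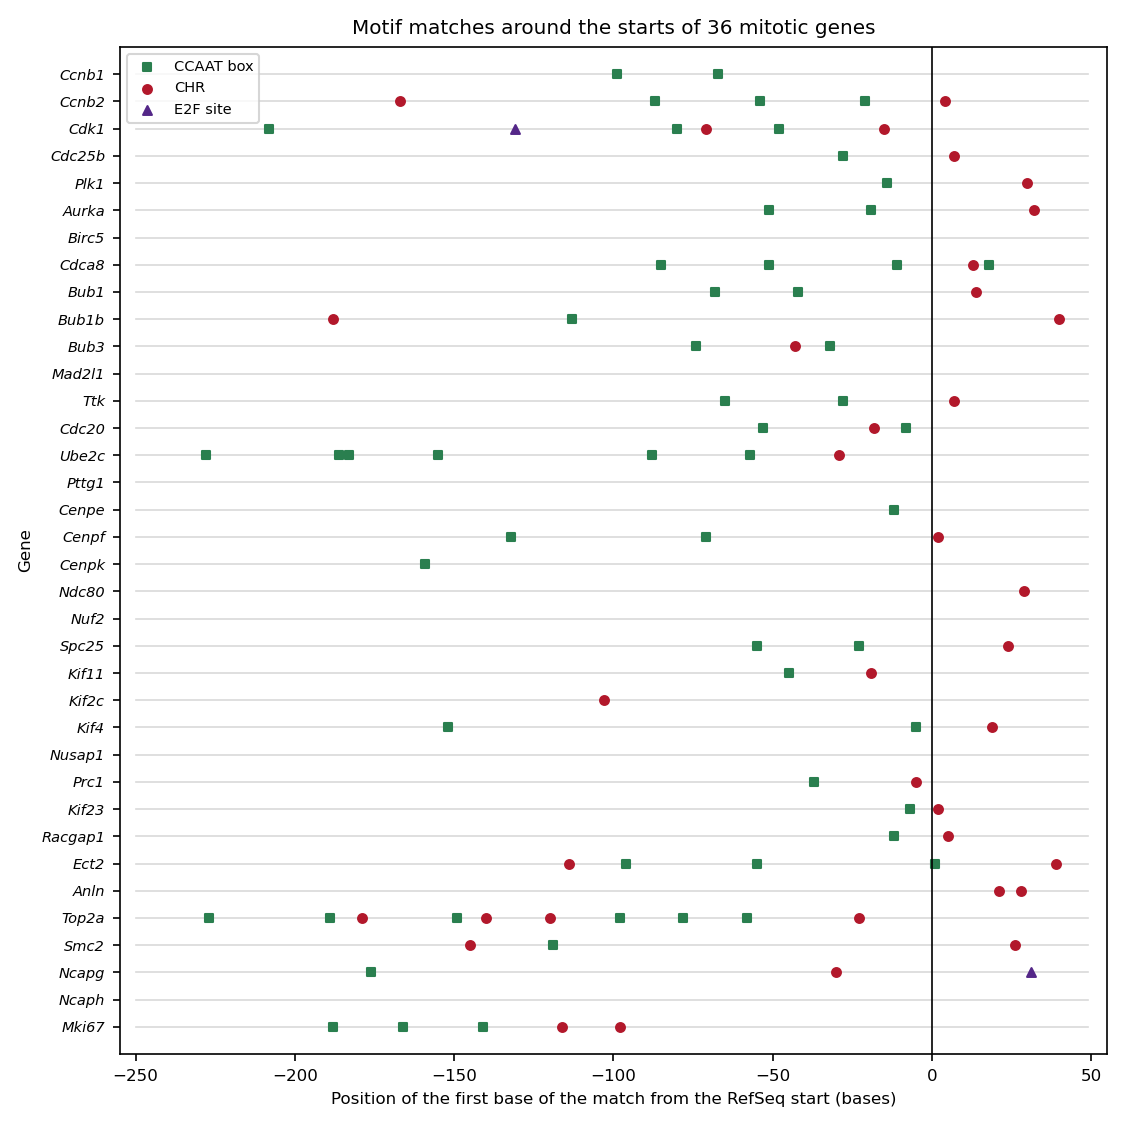
Position of the first base of each motif match (x axis, bases from a RefSeq start at 0; 1 start per gene) in the 36 mitotic genes with a promoter in the table (y axis); squares are CCAAT boxes, circles CHR matches and triangles E2F sites. CHR matches gather around the start, CCAAT boxes lie mostly before it, and 2 genes, Cdk1 and Ncapg, hold an E2F site.

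The E2F site, which binds the factors that switch on DNA replication genes before S phase, was searched as TTTCCCGC, TTTCGCGC, TTTGCCGC and TTTGGCGC on both strands. It was in 2 of the 36 mitotic genes (5.56%), against 3.29% of coding genes. In a list of 45 DNA replication and nucleotide supply genes, of which 36 were in the promoter table, 14 held an E2F site (38.9%), 7 a CHR (19.4%) and 23 a CCAAT box (63.9%). Of 26 cyclins, kinases and inhibitors of G1, 19 were in the table, of which 6 held an E2F site (31.6%), 5 a CHR (26.3%) and 10 a CCAAT box (52.6%). A TATA box (TATAAA) was in 2 of the 36 mitotic genes, against 14.8% of coding genes. The 24 mitotic genes with both a CHR and a CCAAT box had a median level of 95.9 TPM, and the 12 others in the table one of 37.9 TPM, a difference that is given as a description only.

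Levels are given in TPM, which counts transcripts per length and scales them to the library total, here rescaled after the spike-ins were left out, as replicate 1 and replicate 2 or as mean ± SD over both (SD, n = 2 throughout). In both libraries, all 45 genes had at least 10 TPM and 16 had at least 100 TPM. Among the 11403 protein-coding genes with at least 1 TPM in each library (called detected here), 52.3% reached 10 TPM and 8.17% reached 100 TPM, and the median was 11.5 TPM. The 45 genes together held 4486 and 4602 TPM, which was 0.449% and 0.460% of all transcripts, and their median was 61.5 and 60.9 TPM. Each lay in the top 43.2% of detected coding genes, and 18 lay in the top 10%. In bulk tissue, fewer dividing cells and less RNA per dividing cell cannot be told apart, so these levels do not give a share of cells in mitosis. Expected counts (the authors' estimates of reads per gene) ran from 772 and 1068 for Pttg1 to 26208 and 33261 for Mki67, so counting error was small: the exact 95% Poisson interval for Pttg1 was 718 to 828 in replicate 1. The SD over the libraries was 3.58% of the mean in the median gene, 0.151% for Racgap1 and 21.6% for Smc2.

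**Figure D2:**
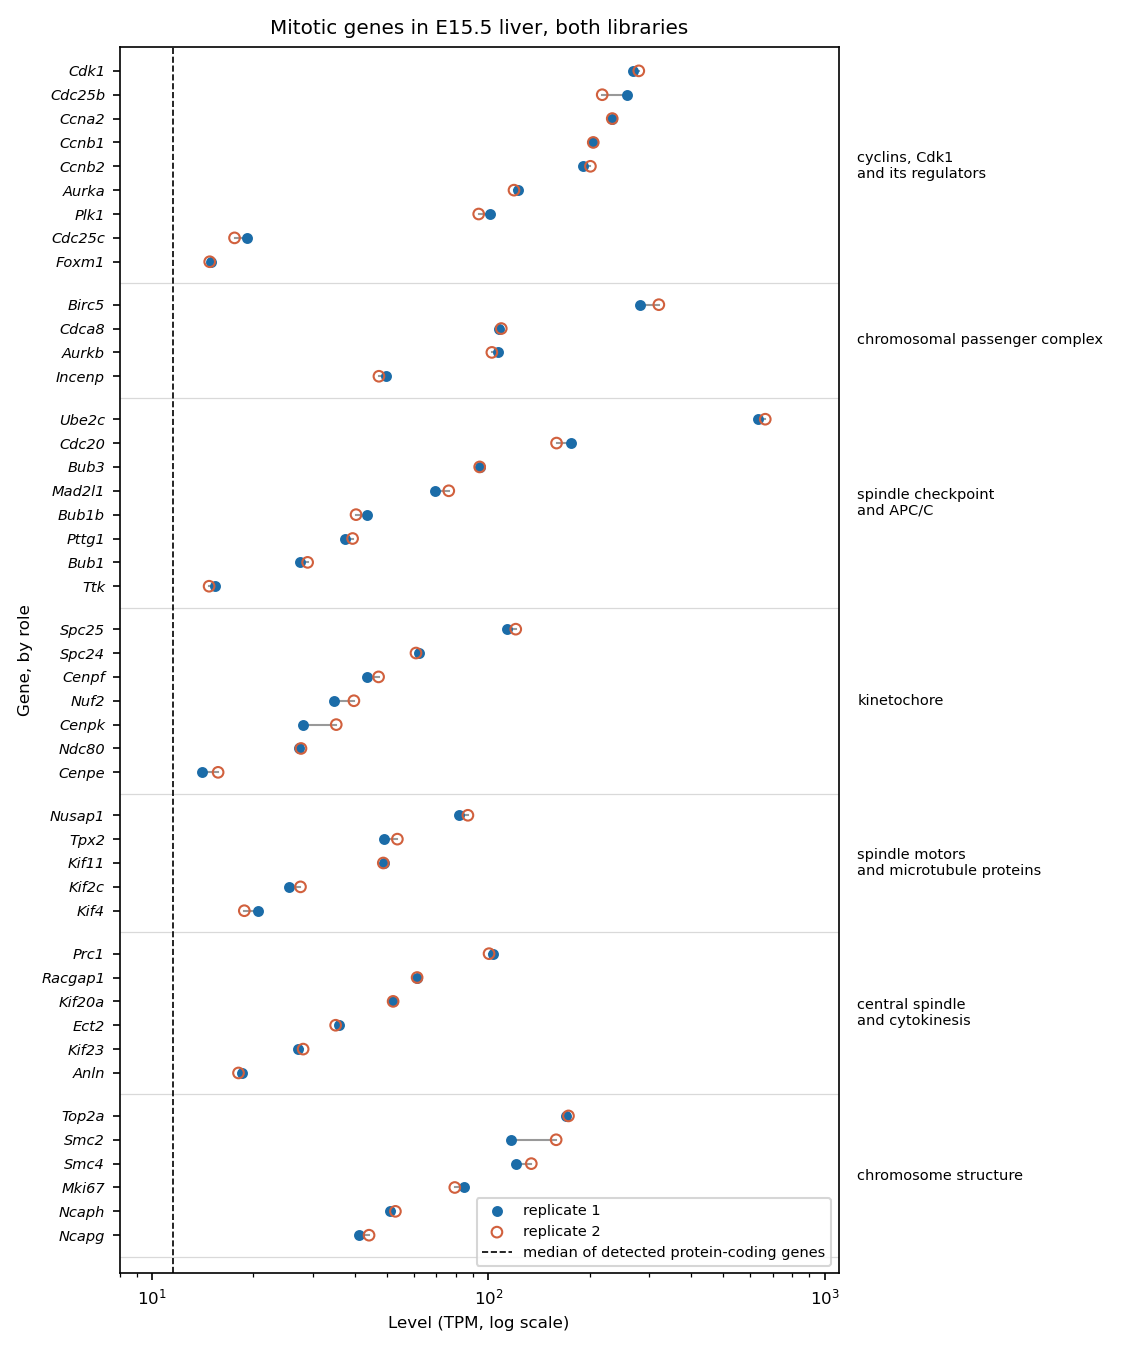
Level of each of the 45 genes in TPM (x axis, log scale), grouped by role (y axis); filled points are replicate 1, open points replicate 2, and the dashed line is the median of detected protein-coding genes (11.5 TPM). All points lie to the right of the line, Ube2c is highest in both libraries, and the gap between the libraries is widest for Smc2.

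Among the cyclins, Cdk1 and its regulators, 6 of 9 genes had at least 100 TPM in both libraries, and the group's median was 196 ± 7.38 TPM. Cdk1, the kinase that drives entry into mitosis, was at 269.5 and 280.0 TPM. Cdc25b, a phosphatase that activates Cdk1, was at 257 and 218 TPM. The cyclins followed closely, and their libraries nearly coincided: Ccna2 (cyclin A2, active from S phase to early mitosis) was at 232 and 233 TPM. Ccnb1, the cyclin of mitotic entry, was at 204 and 205 TPM. Ccnb2 was at 191 and 201 TPM. The kinases that act with Cdk1 were lower than the cyclins in both libraries. Aurka, which acts at the spindle poles, was at 122 and 119 TPM. Plk1, which acts at centrosomes, kinetochores and the cleavage site, was at 101 and 93.5 TPM. The lowest of the group were another phosphatase and a transcription factor. Cdc25c was at 19.1 and 17.6 TPM. Foxm1, a transcription factor of G2 and mitotic genes, was at 14.9 and 14.8 TPM. Its mean, the second lowest of all 45 genes, was 14.88 TPM beside 14.87 TPM for Cenpe, the lowest.

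The chromosomal passenger complex, which corrects faulty attachments and later marks the division plane, had a median of 106 ± 0.917 TPM. Birc5 (survivin) was at 283 and 321 TPM, above the other 3 subunits in both libraries. Cdca8 (borealin) was at 107 and 109 TPM. Aurkb, the kinase of the complex, was at 107 and 102 TPM. Incenp, the scaffold that binds and activates Aurkb, was the lowest at 49.7 and 47.2 TPM.

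The genes of the spindle checkpoint and APC/C ranged more widely than any other role group, around a median of 57.4 ± 1.30 TPM. Ube2c, the ubiquitin-conjugating enzyme that starts chains for APC/C, was at 632 and 666 TPM, the highest of all 45. Cdc20, the APC/C activator that the checkpoint holds, was at 176 and 159 TPM. The checkpoint proteins themselves were lower. Bub3 was at 94.7 and 94.2 TPM. Mad2l1 (MAD2) was at 69.2 and 76.2 TPM. Bub1b (BUBR1) was at 43.7 and 40.4 TPM. Bub1, the related kinase that recruits the others to kinetochores, lay under Bub1b in both libraries. Bub1 was at 27.6 and 29.0 TPM. Pttg1 (securin), which blocks separase until anaphase, was at 37.5 and 39.4 TPM. Ttk (MPS1), the kinase at the top of the checkpoint, was the lowest at 15.4 and 14.8 TPM.

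Kinetochore genes had the lowest median of the 7 role groups, 37.3 ± 3.51 TPM, and only Spc25 reached 100 TPM. Spc25 was at 113 and 121 TPM. Spc24, its partner in the inner end of the NDC80 complex, was at 62.3 and 60.9 TPM. The outer pair, which touches the microtubule, was lower in both libraries. Nuf2 was at 34.8 and 39.8 TPM. Ndc80 was at 27.4 and 27.7 TPM. Of another pair, over all transcripts, the protein of the outer corona was above that of the inner kinetochore in both libraries. Cenpf, of the corona, was at 43.5 and 47.1 TPM. Cenpk was at 28.1 and 35.3 TPM. With protein-coding transcripts alone Cenpf was at 25.7 and 25.1 TPM, under Cenpk in both libraries. Of that, Cenpf-203 (3001 nt) held 18.1 and 19.2 TPM and Cenpf-204 (11130 nt) 6.73 and 5.95 TPM. By share of expected counts Cenpf-204 led, at 53.6% and 48.8%. Cenpe, a very long kinesin that carries chromosomes to the spindle equator, was the lowest of all 45 by mean, at 14.0 and 15.7 TPM. Foxm1 and Ttk lay under it in replicate 2, at 14.8 TPM each.

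The spindle motors and microtubule proteins had a median of 48.7 ± 0.0689 TPM and none at 100 TPM. Nusap1, which bundles microtubules near chromosomes, was at 81.5 and 86.9 TPM. Tpx2, which activates Aurka and seeds spindle microtubules, was at 48.8 and 53.6 TPM. Kif11 (Eg5), the motor that pushes the poles apart, was at 49.0 and 48.7 TPM. The last 2 act on chromosomes and microtubule ends and were lower. Kif2c (MCAK), which takes microtubule ends apart, was at 25.5 and 27.6 TPM. Kif4, a chromosome-bound motor, was at 20.6 and 18.8 TPM.

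The genes of the central spindle and cytokinesis had a median of 43.7 ± 0.206 TPM and differed little between libraries. Prc1, which cross-links the central spindle, was at 103 and 100.4 TPM. Racgap1 and Kif23 form centralspindlin, which calls in Ect2 to activate RhoA at the cleavage site. Racgap1 was at 61.5 and 61.4 TPM. Kif20a, a motor that brings the passenger complex to the midzone, was at 51.9 and 52.1 TPM. Ect2 was at 35.9 and 35.1 TPM. Below these came the centralspindlin motor and a scaffold of the contractile ring. Kif23 was at 27.0 and 28.1 TPM. Anln was at 18.5 and 18.1 TPM.

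The genes of chromosome structure had a median of 104 ± 4.36 TPM. Top2a, the topoisomerase that untangles sister chromatids, was at 170.4 and 173 TPM. Smc2, a core ATPase of condensin, was at 117 and 159 TPM. Smc4, its partner ATPase, was at 121 and 134 TPM. Ncaph and Ncapg, condensin I subunits without ATPase activity, lay lower than both SMC genes over all transcripts. With protein-coding transcripts alone, however, Ncaph (49.0 and 51.3 TPM) lay above Smc2 (46.8 and 48.8 TPM). Ncaph was at 50.9 and 52.9 TPM. Ncapg was at 41.2 and 44.1 TPM. Mki67, which coats mitotic chromosomes and is widely used as a mark of dividing cells, was at 84.3 and 79.4 TPM.

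Longer genes of the 45 tended to have lower TPM. Across the 45 genes, the log2 level and the log2 transcript length gave Spearman's rho of -0.52 in replicate 1 and -0.50 in replicate 2. Across the 11403 detected coding genes rho was -0.38 and -0.39. These points share 2 libraries and their length normalisation, and the part of length in the order of the levels was not tested.

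The wider mitotic machinery was described with 132 further genes in 6 lists, also chosen with earlier results of these data known. In both libraries all 132 had at least 1 TPM, 107 at least 10 TPM and 10 at least 100 TPM. Their median was 22.5 ± 0.796 TPM. The median of the 45 genes was higher by 1.44 ± 0.0611 on the log2 scale, which is 2.80-fold in replicate 1 and 2.64-fold in replicate 2. The highest of the 132 was in the list of other mitotic kinases, cyclins and regulators (20 genes, median 25.0 ± 0.734 TPM). Cks2, a small Cdk-binding protein, was at 322 and 348 TPM, and its relative Cks1b at 194 and 212 TPM. Arpp19, an inhibitor of the phosphatase that opposes Cdk1, was at 81.5 and 108 TPM, whereas Mastl, the kinase that activates it, was the lowest of that list at 5.36 and 5.77 TPM.

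Among other kinetochore and centromere genes (31 genes, median 20.6 ± 1.40 TPM), Cenpa, the histone that marks centromeres, was at 147 and 162 TPM. Zwint was at 137 and 130.2 TPM and Pmf1 at 76.1 and 71.0 TPM, with Kntc1 lowest at 7.72 and 7.79 TPM. Among other checkpoint and APC/C genes (23 genes, median 38.7 ± 0.0734 TPM), Ube2s, which extends the chains that Ube2c starts, led with 298 and 263 TPM. Anapc5 was at 173 and 173 TPM and Anapc10 was lowest at 4.56 and 5.57 TPM. The other spindle and motor genes (30 genes) had a median of 21.8 ± 0.0794 TPM. They ran from Tacc3 at 125 and 131 TPM, Kif22 at 95.5 and 89.8 TPM and Hmmr at 45.6 and 52.0 TPM down to Cenpj at 2.33 and 2.55 TPM. Cytokinesis genes with roles outside division led their list of 9 (median 31.2 ± 0.0623 TPM): Rhoa was at 176 and 186 TPM, Sept2 at 90.6 and 101 TPM and Sept7 at 67.8 and 77.2 TPM. Cntrob was lowest there at 7.62 and 6.51 TPM. In the list of other condensin and cohesin genes (19 genes, median 21.7 ± 0.173 TPM), Nipbl, the cohesin loader, was lowest at 6.10 and 5.87 TPM.

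Beside genes of other cell cycle phases, the median of the 45 genes was near that of the replication list by TPM and above that of the G1 list. The 45 replication genes had a median of 59.3 ± 0.483 TPM, and the mitotic median differed from it by a log2 of 0.04 ± 0.0016. With protein-coding transcripts alone that difference turned to -0.06, and by counts without length correction it was 0.74. Rrm2 (411 and 434 TPM), Pcna (230.2 and 254 TPM) and Mcm6 (195 and 196 TPM) were the highest of the replication list and Gins3 (6.97 and 7.07 TPM) the lowest. The 26 G1 genes had a median of 19.0 ± 0.687 TPM, and the mitotic median was higher by a log2 of 1.68 ± 0.0419. Ccnd3 (438 and 390.5 TPM), Cdk4 (295 and 317 TPM) and E2f4 (181 and 171 TPM) led the G1 list, and Cdkn2a was listed at 0 in both libraries.

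Proteins that work as one complex did not have equal transcript levels. In 5 of 6 complexes the highest subunit exceeded the lowest by more than 2-fold in both libraries. The exception was Cdk1 with its cyclins, where the ratio of highest to lowest was 1.40 ± 0.0150. In the NDC80 complex the ratio was 4.25 ± 0.153: relative to the median of the complex, Ndc80 was at 0.557 ± 0.00978, Nuf2 at 0.754 ± 0.0519, Spc24 at 1.25 ± 0.0519 and Spc25 at 2.36 ± 0.0437. The same order held in both libraries. In the chromosomal passenger complex the ratio was 6.25 ± 0.778, from Incenp to Birc5. In the mitotic checkpoint complex it was 3.99 ± 0.0602, from Bub1b to Cdc20. For Racgap1, Kif23 and Ect2 it was 2.23 ± 0.0640. By counts without length correction, 3 of the 6 complexes passed 2-fold in both libraries, and the ratio was 2.58 for NDC80, 1.80 for the passenger complex, 1.87 for condensin I, 1.79 for Racgap1, Kif23 and Ect2, 2.38 for the checkpoint complex and 3.02 for Cdk1 with its cyclins.

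Condensin I changed most with the choice of transcripts. Over all transcripts its ratio was 3.26 ± 0.476, from Ncapg to Smc2 or Smc4, and its remaining subunit Ncapd2 was at 103 and 88.2 TPM. With protein-coding transcripts alone the ratio was 2.19 ± 0.0833. Smc2 was then at 46.8 and 48.8 TPM, Ncapg at 39.8 and 42.7 TPM, Ncaph at 49.0 and 51.3 TPM and Ncapd2 at 46.3 and 43.0 TPM. These 4 subunits thus lay together in summed level, and Smc4, which condensin II shares as it does Smc2, was at 84.9 and 96.2 TPM. Short protein-coding transcripts made up much of both SMC sums. In Smc4 a transcript of 1163 nt held 73.0 and 83.2 TPM, and that of 4316 nt 11.9 and 13.1 TPM. In Smc2 a transcript of 1660 nt held 25.6 and 26.2 TPM, and that of 5404 nt 21.1 and 22.4 TPM. By these longer transcripts Smc2 and Smc4 lay under Ncapg, Ncaph and Ncapd2 in both libraries.

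**Figure D3:**
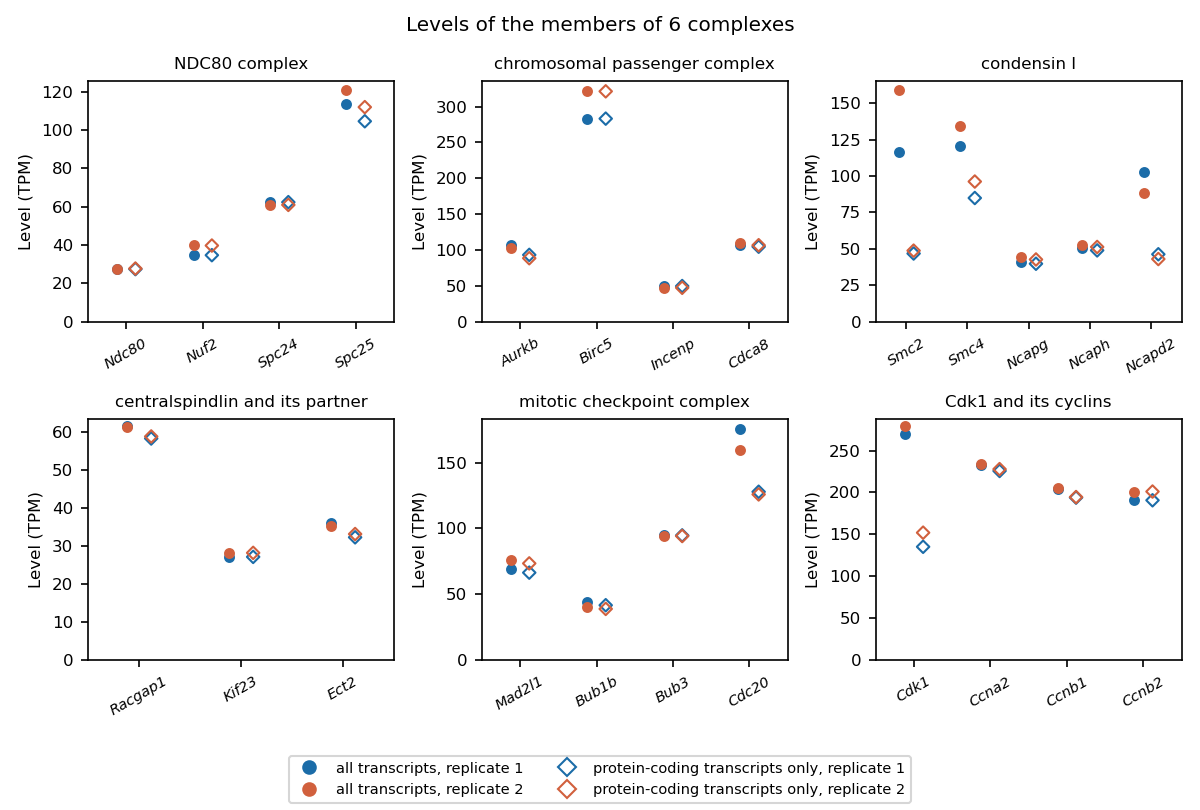
Level in TPM (y axis, from 0) of the subunits of 6 complexes (x axis); filled circles sum all transcripts, open diamonds sum protein-coding transcripts alone, and colours mark the 2 libraries. Smc2, Ncapd2 and Cdk1 drop most when protein-coding transcripts alone are summed, and Smc2, Ncapg, Ncaph and Ncapd2 then lie between 39.8 and 51.3 TPM.

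Many of the 45 genes have relatives of like function. The pairs below were chosen with earlier results of these data known, so their counts are a description. In 20 of 22 pairs with a relative outside the 45, the mitotic gene was the higher in both libraries by more than 2 SD, in 1 it was the lower and in 1 the difference was within 2 SD. Another 4 pairs compared genes within the 45. The germ cell relatives were at or near 0. Aurkc had a count of 0 in both libraries, so Aurka was at least 1077-fold and 1415-fold higher in replicates 1 and 2, and Aurkb at least 943-fold and 1216-fold, with Aurkc set at 3 counts in each library. Kif2b also had a count of 0 in both, and Kif2c was at least 568-fold and 829-fold higher on the same floor. Ccnb3 had 2 and 1 counts, which put Ccnb1 13910-fold higher in replicate 1 (95% counting interval 3849 to 114800) and 38350-fold higher in replicate 2 (6882 to 1515000). Ccna1 had 11 and 10 counts, or 0.238 and 0.165 TPM. Other germ cell markers were also low: none of 5 (Ddx4, Dazl, Sycp3, Sycp1 and Dppa3) reached 1 TPM, and Dppa3 was at 0.

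Among relatives used in somatic cells the differences were smaller. Cdk1 exceeded Cdk2, the S phase kinase (46.8 and 49.1 TPM), by a log2 of 2.52 ± 0.0106, or by 1.58 with protein-coding transcripts alone and 1.02 by counts without length correction. Top2a exceeded Top2b (18.6 and 18.1 TPM) by 3.22 ± 0.0411, or by 2.36 with protein-coding transcripts alone and 2.41 by counts without length correction. Cdc25b exceeded Cdc25a (11.6 and 11.1 TPM) by 4.37 ± 0.128 and Cdc25c by 3.69 ± 0.0849. Cdc25c exceeded Cdc25a by 0.68 ± 0.0436, but lay under it by counts without length correction, at -0.25. Plk1 was above all 3 relatives: by 3.60 ± 0.0504 over Plk2, 5.18 ± 0.333 over Plk3 and 1.46 ± 0.0707 over Plk4, the centriole kinase, which was at 35.4 and 35.0 TPM. With protein-coding transcripts alone the last difference was 2.31. Mad2l1 exceeded Mad2l2 (12.3 and 11.9 TPM) by 2.58 ± 0.127. Kif20a exceeded Kif20b (9.42 and 9.91 TPM) by 2.42 ± 0.0479, or by 1.77 by counts without length correction.

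Summed by gene, the condensin ATPases exceeded those of cohesin. Smc2 was above Smc1a (43.8 and 44.5 TPM) by a log2 of 1.63 ± 0.297 and Smc4 above Smc3 (26.5 and 28.6 TPM) by 2.20 ± 0.0308. By counts without length correction these were 0.53 and 0.84, and with protein-coding transcripts alone Smc2 was above Smc1a by 1.03. The subunits of condensin I and condensin II did not differ in 1 direction. Ncapg exceeded Ncapg2 (22.3 and 21.8 TPM) by 0.95 ± 0.0923, while Ncaph lay under Ncaph2 (111 and 104 TPM) at -1.05 ± 0.103. The first was 0.09 by counts without length correction and the second -0.48 with protein-coding transcripts alone. Bub1 lay under Bub1b at -0.57 ± 0.131. Of the APC/C partners, Ube2c exceeded Ube2s by 1.21 ± 0.180. Cdc20 exceeded Fzr1, the activator of late mitosis and G1 (137 and 117 TPM), by 0.41 ± 0.0619, but was at -0.58 by counts without length correction and 0.22 with protein-coding transcripts alone. Aurka exceeded Aurkb by 0.21 ± 0.0186, or 0.39 with protein-coding transcripts alone. For 2 pairs the difference was within 2 SD: Ccnb1 against Ccnb2 at 0.06 ± 0.0496 and Kif2c against Kif2a (21.6 and 28.6 TPM) at 0.09 ± 0.201. By counts without length correction both were beyond 2 SD, at 0.74 ± 0.0510 and 0.51 ± 0.0101.

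Of the 45 genes, 33 had more than 1 annotated transcript and 12 had 1. In 32 of the 33 the most abundant transcript was the same in both libraries, and its share of the gene's TPM had a median of 76.8%. The exception was Kif20a, where the transcripts Kif20a-201 and Kif20a-202, both protein-coding and of 3567 and 3565 nt, held 59.4% and 40.6% in replicate 1 but 31.4% and 68.6% in replicate 2. The sum of the 2 transcripts hardly moved, as the gene levels above show.

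Transcripts not annotated as protein-coding (retained introns, processed transcripts, and transcripts marked for nonsense-mediated decay) held 20% or more of the TPM in 7 of the 33 genes. Among 8418 detected coding genes with more than 1 transcript, 29.7% reached that share. The 7 were Smc2 at 64.6%, Cdk1 at 47.8%, Top2a at 47.2%, Cenpf at 43.9%, Smc4 at 28.9%, Cdc20 at 24.2% and Foxm1 at 22.8%. By shares of expected counts only 3 of them did so, Smc4 at 42.0%, Smc2 at 23.5% and Cdk1 at 20.6%, as TPM gives short transcripts more weight than counts do. Smc2 was the only gene led by such a transcript: Smc2-203, a processed transcript of 643 nt (chr4:52439252-52447776 on GRCm38, at the 5′ end of the gene), held 58.4% and 59.9%. By expected counts Smc2 was led instead by the protein-coding Smc2-201 of 5404 nt, at 58.8% and 54.0%. In Smc4, by contrast, counts put Smc4-207, a transcript of 4057 nt marked for nonsense-mediated decay, first at 39.1% and 39.4%.

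Short transcripts also made up much of Cdk1 and Top2a. In Cdk1, the retained-intron transcripts Cdk1-204 (475 nt) and Cdk1-203 (378 nt) held 27.3 ± 0.790% and 19.8 ± 2.07% of the TPM beside 50.5 ± 2.87% for the protein-coding Cdk1-202. With protein-coding transcripts alone, Cdk1 was at 135 and 152 TPM, below all 3 cyclins in both libraries, where over all transcripts it was above them. In Top2a, the processed transcript Top2a-202 (632 nt) held 25.3 ± 0.260% beside 52.8 ± 0.112% for Top2a-201 (5221 nt). Top2a was at 89.9 and 91.6 TPM with protein-coding transcripts alone.

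**Figure D4:**
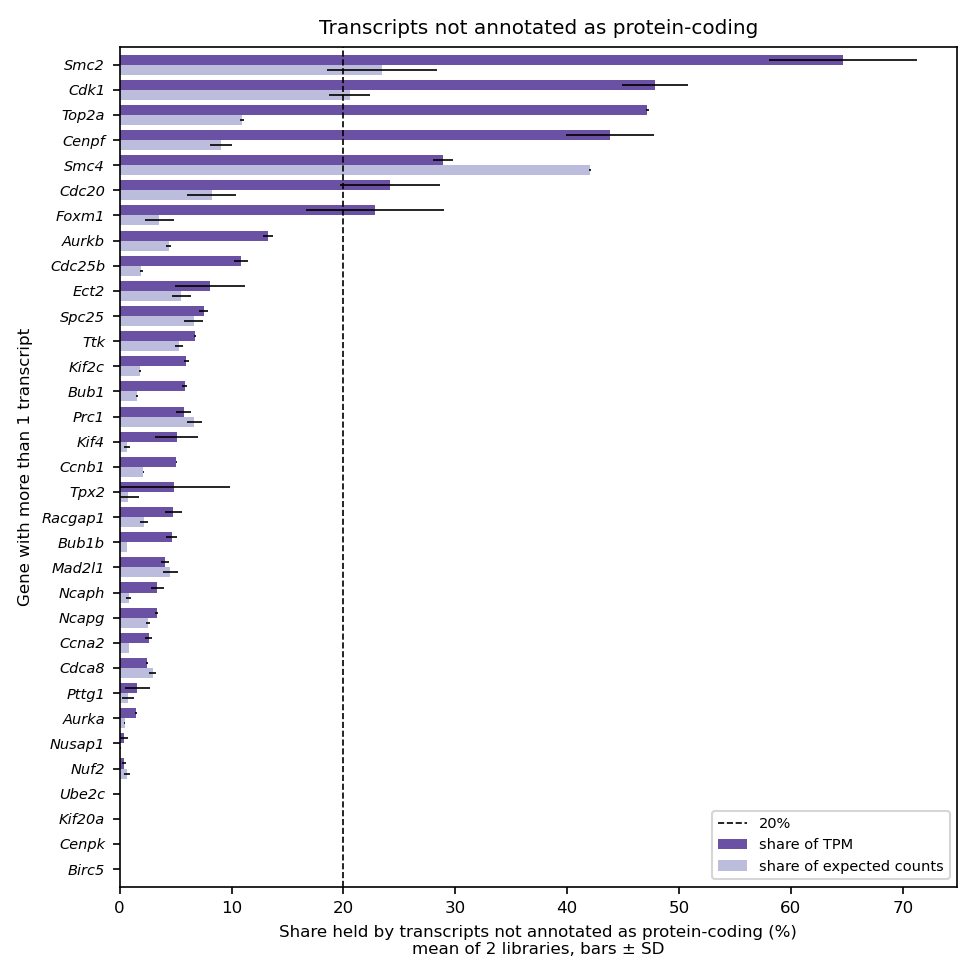
Share of each gene held by transcripts not annotated as protein-coding (x axis, %; bars are means of 2 libraries and lines the SD) in the 33 mitotic genes with more than 1 transcript (y axis), by TPM (dark) and by expected counts (light). Smc2 is highest by TPM at 64.6% and Smc4 by expected counts at 42.0%, and most genes lie well under the dashed line at 20%.

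In 11 genes the first 2 transcripts held 20% or more each. For Cdk1, Top2a and Cenpf the second was not annotated as protein-coding. The others were pairs of protein-coding forms. Cdc25b split into Cdc25b-202 at 48.6 ± 0.794% and Cdc25b-201 at 40.6 ± 1.42%. Prc1 was the most divided, with 29.9 ± 1.60% in its first form and 23.3 ± 2.88% in Prc1-202. Cenpk-202 held 23.2 ± 0.351%, Spc25-202 22.8 ± 0.393%, Mad2l1-201 21.3 ± 0.734%, Ect2-207 22.0 ± 4.85% and Nuf2-202 25.0 ± 7.41%. The remaining gene was Kif20a.

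The libraries were compared over the 8781 genes at 5 TPM or more in either library, as the log2 ratio of TPM + 1 of replicate 2 over replicate 1. With 1 group and 1 library on each side there is no test, and an exact sign test over 2 libraries could not go below 0.5. No mitotic gene differed by more than 2-fold, against 0.672% of the 8781. The ratios of the 45 genes ran from -0.24 for Cdc25b to 0.44 for Smc2 with a median of 0.02, beside a median of -0.04 over all genes. Of the 45, 42 (93.3%) lay within 0.2 in either direction, against 74.5% of all genes, and the exceptions were Smc2, Cdc25b and Cenpk at 0.32. The 8781 genes reach down to 5 TPM and were not matched to the 45 in level. Other lists were also close: 40 of 45 replication genes, 21 of 23 G1 genes and 110 of 130 further mitotic genes lay within 0.2. Smc2 differed less by expected counts scaled to the library total, at 0.26, and its protein-coding level of 46.8 and 48.8 TPM was nearly the same in both libraries.

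Many of these small differences were larger than counting error, with each read taken as independent. The exact 95% interval of the count ratio lay above 1 for 26 of the 45 genes (57.8%), against 25.2% of the 8781. It lay below 1 for 4 genes (8.89%: Cdc25b, Plk1, Foxm1 and Mki67), against 24.4%. Intervals narrow as counts rise, and the 8781 genes were not matched to the 45 in counts. For Cenpk the count ratio was 1.30 (interval 1.21 to 1.41), for Birc5 1.16 (1.13 to 1.20) and for Cdc25b 0.871 (0.856 to 0.888). These intervals cover counting error only, because there was 1 library on each side. Several reads can be PCR copies of 1 molecule, so the counting error itself may be larger than the intervals show. For Prc1, Racgap1 and Ect2 the interval lay above 1 while the ratio of TPM + 1 was between -0.04 and 0.00. Counts scaled by the spike-ins gave a median log2 ratio of 0.14 for all genes and 0.22 for the 45 genes, a gap of 0.08. Counts scaled to the library total also gave a gap of 0.08, where TPM + 1 gave 0.06. With spike-in scaling 42 of the 45 genes had an interval above 1 and 1 below it, against 59.2% and 5.81% of the 8781 genes.

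The kinetochore genes had the highest median log2 ratio of the role groups, 0.11, with 6 of 7 genes higher in replicate 2. The cyclins and Cdk1 regulators had a median of -0.01, with 4 of 9 higher. Over all 45 genes 26 were higher, and over the 8781 genes 3443 were. The replication list had a median of 0.04, with 31 of 45 genes higher, so a shift upward was not particular to the mitotic genes. Base composition moved with these ratios: across the 45 genes, GC content and the log2 ratio gave Pearson's r of -0.53 and Spearman's rho of -0.50, and across 8686 genes r was -0.22 and rho -0.35. The genes share the 2 libraries, so these are descriptions. After the median ratio at each GC content was removed, Cenpk was at 0.22, Cdc25b at -0.15 and Smc2 at 0.41, and the median of the 45 genes was 0.03.

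**Figure D5:**
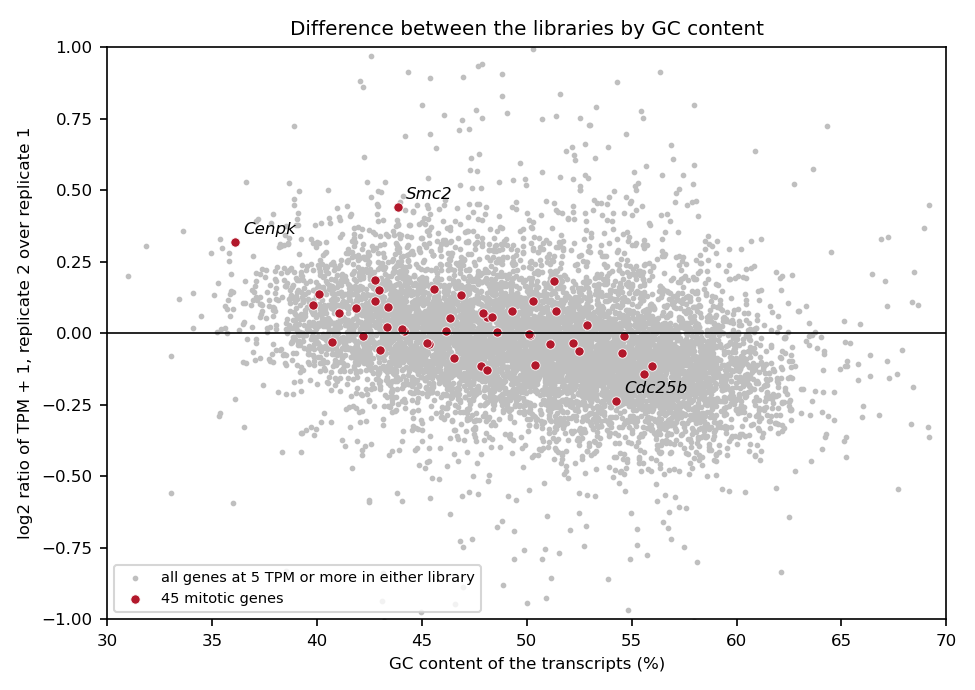
Log2 ratio of TPM + 1 of replicate 2 over replicate 1 (y axis) against GC content of the transcripts in % (x axis); red points are the 45 mitotic genes and grey points the 8686 genes at 5 TPM or more in either library that have a GC value, of which 62 lie outside the axes. All 45 lie within 0.5 of zero, and genes of low GC content such as Cenpk lie higher than genes of high GC content such as Cdc25b.

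Markers of other cell types differed between the libraries as well. Summed markers of hepatocytes were at 51065 and 41220 TPM (all 10 with at least 10 TPM in both), of red cell precursors at 384579 and 392667 TPM (10 of 10), and of myeloid cells and macrophages at 5271 and 5736 TPM (10 of 10), so the labelled tissue carried its defining markers. Megakaryocyte markers summed to 427 and 443 TPM. Markers of neighbouring tissue went in opposite directions: those of exocrine pancreas summed to 58.1 and 15.0 TPM (3 of 6 at 1 TPM or more in both) and those of heart and skeletal muscle to 223 and 364 TPM (6 of 7). Their part in the values of the mitotic genes was not tested.

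Several mitotic genes share sequence with other genes, and the strand used in counting is not given in the sources used here. Windows of 100 nt found in another gene made up 21.4% of the transcribed sequence of Kif20a, which overlaps Cdc23 on the opposite strand (35.1 and 34.2 TPM). For Ccnb1 they made up 14.9%, shared with processed pseudogenes such as Ccnb1-ps (1.56 and 1.86 TPM). For Kif4 they made up 13.3%, shared with Pdzd11 on the opposite strand (57.0 and 52.3 TPM). Between 6% and 11% was shared in Cdc25c, Ncapg, Ccna2, Prc1 and Ube2c. Ube2c overlaps the muscle gene Tnnc2, which was at 25.2 and 47.2 TPM. How reads in such stretches were divided was not tested, and the levels of Kif20a, Ccnb1 and Kif4 are uncertain to that extent.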

How the data were processed

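Total RNA of 2 liver libraries of 1 group was analysed. Per the labels and the companion descriptions, both were processed on mm10 with annotation M4. The aligner, quantifier and strand of counting were not given in the sources used here. Per the file headers, the authors estimated an expected count for every gene and transcript, unscaled and spike-ins among them. Their TPM and posterior mean TPM, also deposited, divide by effective length (99 nt below the length) and by the library total. The deposited bounds of the authors' credibility intervals, treated as a score, were not used. Leaving spike-ins out, the libraries held 34039426 and 44200838 expected counts, so that a count of 0 allows up to 3 counts, or 0.0881 and 0.0679 CPM.

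From these, TPM was rescaled without 97 spike-in entries and 26248 numeric entries, whose nature is not stated. GENCODE M21 (GRCm38), later than M4, gave symbols, biotypes and coordinates and named 42462 of 43346 genes; a transcript that M21 does not list as protein-coding counts as not protein-coding. All 301 listed symbols matched. Promoters came from RefSeq (GRCm38.p6), where 9 of the 45 genes had no entry. Ratios used a pseudocount of 1 between libraries and 0.1 between genes. Count intervals were Clopper-Pearson at 95%. They were run on simulated Poisson counts, which share the assumption of independent reads. That run checks the calculation and does not test the intervals for these data. Genes were named by rule: all 45 genes and all relatives and complex partners, the 3 highest and the lowest of each list, and genes whose leading transcript changed, was not protein-coding or shared its lead. The genes, lists and pairs were chosen with earlier results of these data known. Alternatives were posterior mean TPM, spike-ins kept, counts scaled to the library total, other filters and pseudocounts, edgeR 4.0.16 TMM and DESeq2 1.42.0 median-of-ratios factors (scaling only; R 4.3.3), spike-in scaling and leaving out each library; sums over protein-coding transcripts, removal of the GC trend and shares of counts were added after the data were seen. Python 3.11.15, pandas 2.3.3 and scipy 1.17.1 were used.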

Additional observations from a re-analysis of the deposited data

How the results depend on the processing

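No paired analysis was possible because the libraries form 1 group. Posterior mean TPM moved the median of the 45 genes to 60.7 TPM, and spike-ins kept in the total moved it to 59.2 TPM and the sum to 4394 TPM. Counts scaled to the library total without length correction gave 30 genes at 100 or more, a sum of 8715 and a median of 153, and log2 ratios to the replication, G1 and other mitotic lists of 0.74, 1.62 and 1.67. They left 3 complexes past 2-fold and turned Cdc25c over Cdc25a to -0.25 and Cdc20 over Fzr1 to -0.58. Protein-coding transcripts alone, chosen after seeing the data, gave a sum of 4043 TPM, a median of 52.0 TPM and log2 ratios of -0.0553, 1.77 and 1.37, and turned Ccnb1 over Ccnb2 to -0.0121. TMM and median-of-ratios scaling each left 1 gene with a count interval below 1, against 20.5% and 20.1% of the 8781 genes. Spike-in scaling gave 42 above and 1 below, against 59.2% and 5.81% of the 8781 genes, and a median of 0.22. Shares of counts left 3 genes with 20% or more in transcripts not protein-coding, and the 150 bases before the start left 12 genes with a CHR and 10 with both motifs. Leaving out a library gave 16 to 17 genes at 100 TPM, 6 to 7 with a share of 20% or more not protein-coding, and log2 ratios of 0.04 to 0.05, 1.65 to 1.71 and 1.40 to 1.49 to the replication, G1 and other mitotic lists; Kif2c over Kif2a ran from -0.0491 without replicate 1 to 0.235 without replicate 2. The causes of these shifts were not tested. Of 156 recomputed pair ratios, 100 moved by less than 1 SD, 52 by more and 4 turned. Ratios that leave out 1 library could not move by 1 SD, since each of 2 values lies under 1 SD from their mean. The 100 are therefore not a measure of stability. With 2 libraries the SD is itself uncertain.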

Other observations

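In 6 of the 36 mitotic genes in the promoter table (16.7%), against 1.41% of coding genes, at least 1 pair of CCAAT boxes began 31 to 33 bases apart, about 3 turns of the DNA helix. They were Aurka, Ccnb1, Ccnb2, Cdk1, Spc25 and Ube2c. In Ccnb2 the boxes began at -87, -54 and -21 from the start, each 33 bases from the next, and in Ube2c pairs at -186 and -155 and at -88 and -57 were both 31 bases apart. In Cdk1, where the boxes at -80 and -48 are in capitals in the printed sequence, a CHR at -71 lies between them, and another at -15 lies after the printed stretch. The spacing was chosen after the positions were seen, so these counts are a description.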
